A study of Mus musculus with 18 samples.

Results

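The genes described here carry the supply and control of glycolysis and of growth through mTOR in naive CD4 T cells. Chromatin accessibility was measured by ATAC-seq, in which the Tn5 transposase cuts open DNA, and 102 open regions were assigned to 31 of 32 listed genes out of 33115 regions in the whole series. A region is the union of overlapping peaks (at least 1 bp) of 18 peak lists on mouse build mm10. It was given to a listed gene when that gene had the nearest protein-coding gene end within 50 kb of the region's centre. Of the 102 regions, 29 lay within 1 kb of a gene end and 73 lay farther away. No region met the rule for Pfkl, the liver-type phosphofructokinase.

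The cells were naive CD4+ T cells taken fresh, without treatment, from mice labelled WT and C57BL6/J. They had been sorted for high or low signal of an Nr4a1-dsGFP reporter, which the titles call high or low TTS, with the series title naming tonic TCR stimulation. Nr4a1 is switched on by T cell receptor signals, so the reporter is a readout of recent receptor signalling. The high and the low fraction each came from mesenteric lymph nodes, axillary lymph nodes and spleen, with 3 libraries in each of 6 groups. The labels call the libraries biological replicates but name no animals, so the p-values refer to spread among libraries that may have come from the same mice and may be technical. The genotype label does not mention the reporter, and the sources used here do not say how it was introduced.

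A resting T cell takes up little glucose and few amino acids and burns much of its fuel in mitochondria. Strong receptor signals raise Myc, HIF-1 alpha and mTOR activity, which increase the carriers and enzymes that turn glucose into lactate and feed growth. mTOR is a kinase at the core of mTORC1 and mTORC2, is activated by Rheb when amino acids are sufficient, and is held back by the Tsc1 and Tsc2 complex and by sestrins. The comparison of reporter fractions asks whether differences in tonic signalling go with differences in chromatin at these genes, and the comparison of organs asks the same of the tissue of residence.

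The 18 lists held 14372 to 23129 peaks. Recovered depth, as the genome-wide background, was 16.5 to 16.6 reads per 10 kb in mesenteric high libraries, and 8.48 to 14.4 in the other groups, with axillary libraries at 8.48 to 10.2. The fragment length estimated from the narrowest peak was 161 to 176 bp in 12 libraries and 216 to 236 bp in 6, of which 5 were axillary and 1 was spleen low. Libraries of one group differed by less than counting noise, for which a chi-square per region of 1 is the mark, with 0.512 to 0.636 in 18 pairs. The 135 pairs of different groups gave 0.621 to 0.94. Every same-group pair behaved this way, so all were kept as replicates, and results are also given with the reads of each group summed into 1 preparation. Among markers of naive CD4 T cells, 5 of 8 genes had a gene-end region in some library, and Ccr7 and Cd28 had one in every library. None of 4 B cell genes did, whereas Cd8b1 of CD8 T cells had one in every library. Gene-end regions of Gzmb, Flt3, Itgam, Col1a1 and Epcam were found in some libraries.

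Promoter sequences of 27 listed genes were taken from RefSeq (GRCm38.p6). Those below are shown for genes on which the results turn or whose start is richest in one motif: Slc16a1 and Aldoa had the regions that passed a test below, Hk2 had a start region missing from some low libraries, and Ldha held the most copies of the hypoxia response core. Each is the 250 bases upstream of a transcription start, 5′ to 3′ on the gene's strand. The Slc16a1 sequence is that of its start and not of the region that passed, which lay farther upstream. Capitals mark ACGTG or its reverse complement CACGT, the core bound by HIF-1 and, within CACGTG, by Myc with Max.
Slc16a1 (chr3:104638414-104638663, plus strand): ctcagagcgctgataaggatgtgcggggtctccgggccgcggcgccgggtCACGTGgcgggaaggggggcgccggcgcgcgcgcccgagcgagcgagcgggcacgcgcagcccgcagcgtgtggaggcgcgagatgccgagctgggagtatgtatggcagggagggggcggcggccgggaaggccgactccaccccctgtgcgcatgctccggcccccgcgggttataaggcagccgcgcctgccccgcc
Aldoa (chr7:126799255-126799504, minus strand): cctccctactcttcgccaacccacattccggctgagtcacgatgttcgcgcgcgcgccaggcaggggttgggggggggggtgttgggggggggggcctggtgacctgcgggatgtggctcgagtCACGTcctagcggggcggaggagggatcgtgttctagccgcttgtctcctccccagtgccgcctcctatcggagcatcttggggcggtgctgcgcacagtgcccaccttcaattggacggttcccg
Hk2 (chr6:82774455-82774704, minus strand): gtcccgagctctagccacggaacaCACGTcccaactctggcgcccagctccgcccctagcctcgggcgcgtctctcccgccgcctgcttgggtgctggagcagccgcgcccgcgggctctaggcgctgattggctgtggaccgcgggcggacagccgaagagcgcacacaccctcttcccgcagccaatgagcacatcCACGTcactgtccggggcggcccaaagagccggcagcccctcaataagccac
Ldha (chr7:46845554-46845803, plus strand): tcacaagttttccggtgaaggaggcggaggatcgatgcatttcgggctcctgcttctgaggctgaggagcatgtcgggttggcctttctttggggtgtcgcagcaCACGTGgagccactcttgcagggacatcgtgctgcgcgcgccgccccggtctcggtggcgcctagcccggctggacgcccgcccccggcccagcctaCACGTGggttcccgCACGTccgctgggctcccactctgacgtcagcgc
Counted on both strands, ACGTG stood 5 times upstream of this Ldha start, 2 times each upstream of Slc16a1 and Hk2, and 1 time upstream of Aldoa. A copy of CACGTG counts on each strand, so the single run in Slc16a1 gives both of its matches. Among 37 promoters of the 27 genes, 16 (43.2%) held ACGTG, against 16.6% of 32851 promoters in the table. CACGTG, the E-box of Myc, was in 13.5% of them, against 6.02% of all. The NFAT core GGAAA was in 40.5%, against 55.6% of all, the AP-1 motif TGANTCA in 2.7%, against 6.75%, and AAAGGTCA, the element bound by Nr4a factors, in 2.7%, against 1.34%. The member promoters were richer in G and C, with a median of 64% against 52.4%. Shares of these motifs, higher or lower, are therefore not comparable letter for letter. Nearby starts of Aldoa and of Eno1 have overlapping windows, so the 37 promoters are not separate observations. These matches describe letters in the window only.

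Of the 37 starts, 30 lay inside an open region and 23 lay inside a region found in all 18 libraries. The rule by gene end left 7 start regions in the farther class, because another transcript of the gene starts upstream. They belonged to Hk1 (39552 bp from the nearer gene end), Pfkfb3 (30270 bp), Sesn1 (20911 bp), Hif1a (6747 bp), Slc3a2 (6727 bp), Ldha (3682 bp) and Aldoa (1610 bp). For Hk1 the annotated start farther upstream lay in no region, and the internal start was open in every library.

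A peak was present in all 18 libraries at 36 of 102 regions (35.3%), against 26.4% of all regions. Within 1 kb of a gene end the share was 62.1% of 29 regions, against 55.6% of 10099. Farther away it was 24.7% of 73 regions, against 14% of 17587 regions 1 to 50 kb from a gene end. Another 49 regions had a peak in 2 to 17 libraries and 17 in 1 library. At least 1 region was open in every library at 26 listed genes. The 5 genes with regions but none in every library were Slc38a1, Slc16a3, Hk2, Rptor and Tsc2.

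**Figure D1:**
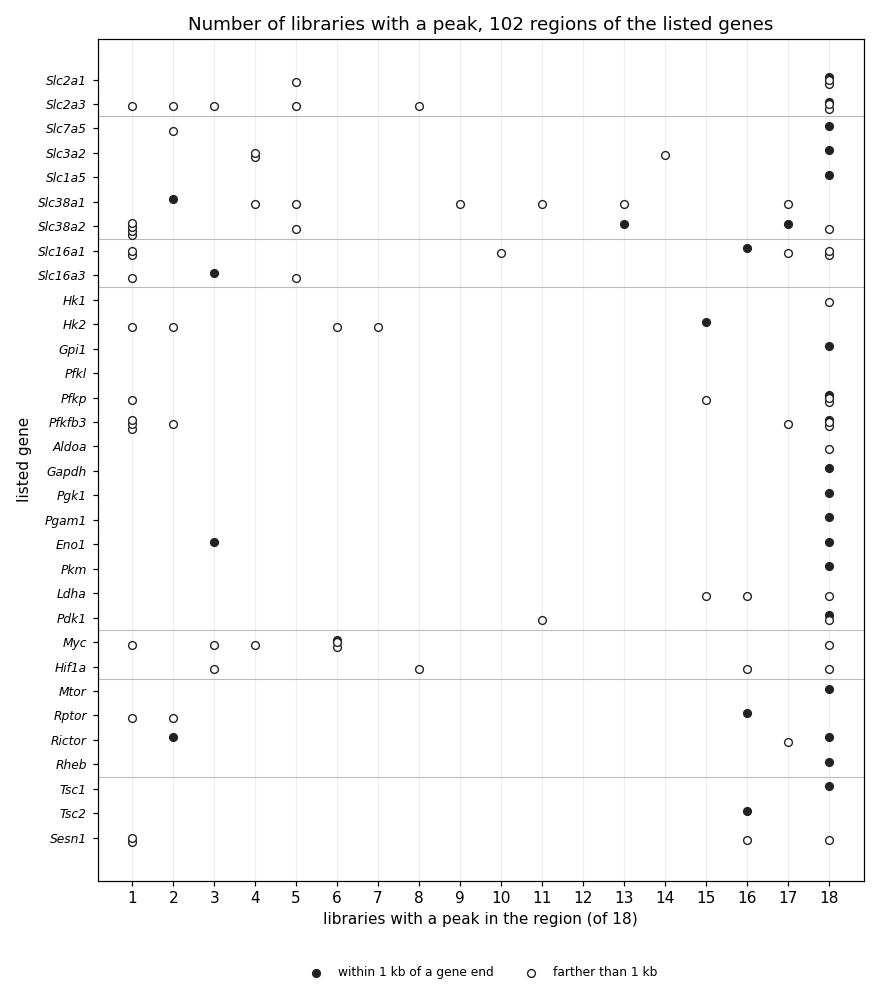
Number of libraries with a peak (horizontal axis, of 18) for each of the 102 regions, by listed gene (vertical axis, in role groups separated by lines). Filled points are regions within 1 kb of a gene end and open points are farther regions, and 36 regions sit at 18.

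Mesenteric high libraries held 74 to 78 regions of these genes, against 60 to 62 in mesenteric low libraries. As a share of all regions in a library these were 0.328 to 0.342% in mesenteric high and 0.354 to 0.364% in mesenteric low libraries, so the members were not a larger share where they were more numerous. Axillary high libraries held 54 to 58 (0.366 to 0.37%) and axillary low libraries 52 to 56 (0.348 to 0.392%). Spleen high libraries held 59 to 61 (0.342 to 0.352%) and spleen low libraries 55 to 58 (0.328 to 0.382%). Mesenteric high libraries also had the highest recovered background, and the part of depth in these counts was not separated. With reads thinned to the lowest genome-wide background, 8.48 reads per 10 kb, the counts were 61 to 70 in mesenteric high and 55 to 60 in mesenteric low libraries. After this thinning axillary high libraries had 54 to 56 and axillary low libraries 52 to 56, and spleen high libraries had 52 to 57 and spleen low libraries 48 to 55. With equally long peak lists, mesenteric high libraries had 50 to 58 and mesenteric low libraries 54 to 58. Of the 17 regions seen in 1 library, 15 were seen in a high library, 9 of them in mesenteric high. Among all 6294 regions seen in 1 library, 74.5% were in a high library and 49.4% in a mesenteric high library. After thinning the libraries still differed in all regions, with 18546 to 18693 in mesenteric high and 15668 to 16039 in mesenteric low libraries.

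**Figure D2:**
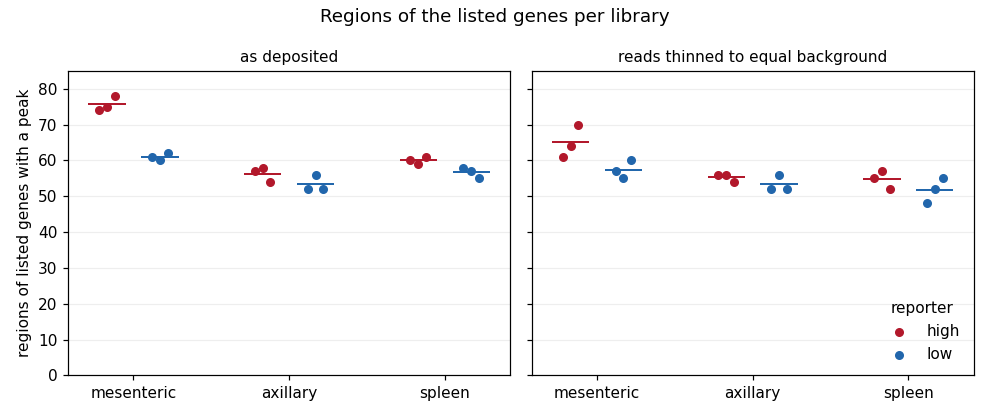
Regions of the listed genes with a peak (vertical axis, count) per library, by organ and reporter fraction, in the deposited lists (left) and after thinning reads to equal genome-wide background (right). Points are libraries and lines are means of 3. Mesenteric high libraries lie at 74 to 78 and at 61 to 70, and they also held more regions of all genes in both cases.

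Regions present in 6 to 12 libraries were compared between high and low by Fisher's exact test (two-sided, 9 against 9 libraries). None of 11 member regions passed after Benjamini-Hochberg adjustment and none had an unadjusted p under 0.05. The lowest p that Fisher's exact test can give here is 4.11e-05, so over 5737 regions no single region could pass alone. In this comparison 0% of 5737 regions passed after adjustment and 6.1% had an unadjusted p under 0.05, 5.84% more often open in high and 0.261% more often open in low. The smallest p belonged to a region 22.2 kb outside Hk2, which encodes the inducible hexokinase of activated T cells. Of the high libraries 5 had a peak there, against 1 low library (Fisher's exact test, p = 0.131, adjusted p = 0.811). A region 36.8 kb inside Slc2a3, which encodes the glucose carrier GLUT3, was open in 6 of the high libraries, against 2 of the low (Fisher's exact test, p = 0.153, adjusted p = 0.811). Among the 21 member regions present in 2 to 5 libraries, 8 were found in high libraries alone and 1 in low libraries alone. Over all 7602 such regions these shares were 33.5% and 3.74%.

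Presence was also compared between organs, with 6 libraries each, at regions present in 5 to 13 libraries. The test was the exact Fisher-Freeman-Halton test. None of 18 member regions passed after adjustment, as over all 7630 regions (0%), and 1 member had an unadjusted p under 0.05, against 11.2% of all regions. It lay 11.5 kb outside Slc38a1, which encodes the glutamine carrier SNAT1 (chr15:96654783-96655120). A peak was present there in 4 mesenteric, 0 axillary and 5 spleen libraries (exact Fisher-Freeman-Halton test, p = 0.0247, adjusted p = 0.285). Where present, it held 4.93 to 11.8 normalised summit reads. In libraries with a fragment estimate under 200 bp alone, which keeps 1 axillary library, the exact p was 0.159.

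The level of opening was measured where a peak was present in all 18 libraries, as the number of reads piled up at the peak's summit divided by a library size factor (normalised summit reads). Of the 102 regions, 36 could be measured in this way, and the others are described by presence only. These levels are counts at 1 position per library, the summit of the region's strongest peak by the authors' p. They are not summed over the region. The position may differ between libraries, and a longer region offers more positions for a high summit. Values below are means ± SD over 9 libraries of each fraction. The median member level was 24 reads, against 22.6 over all 8756 regions measured. In these bulk samples, fewer open cells and less opening per cell cannot be told apart.

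The glucose carriers were open in every cell fraction. Slc2a1 encodes GLUT1, the main glucose carrier of stimulated T cells. Its gene-end region (chr4:119108545-119109479) held 31.3 ± 5.43 reads in high and 28.9 ± 5.28 reads in low libraries (SD, n = 9 each). A region 2.8 kb outside Slc2a1 held 31.2 ± 4.48 reads in high and 34.0 ± 3.55 reads in low libraries. These differences were smaller than the spread. At Slc2a3 the strongest region was 8.8 kb outside the gene (chr6:122810329-122811936) and held 55.4 ± 6.03 reads in high and 58.6 ± 5.84 reads in low libraries. It was the highest of the 36 member levels, above 96.9% of all regions measured.

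Of 22 regions at amino acid carriers, 4 were open in every library. Slc7a5 and Slc3a2 encode the light and heavy chain of the leucine carrier LAT1. Both had a gene-end region in every library. At Slc7a5 it held 22.7 ± 5.20 reads in high and 22.7 ± 3.08 reads in low libraries. At Slc3a2 it held 21.2 ± 3.48 reads in high and 18.2 ± 3.46 reads in low libraries. Slc1a5, the glutamine carrier ASCT2, had 1 region, at its gene end, with 17 ± 3.43 reads in high and 16.4 ± 4.65 reads in low libraries. Slc38a1 had 7 regions, none in every library, and its gene-end region was found in 2 mesenteric high libraries. Slc38a2, the glutamine carrier SNAT2, had 8 regions. Its 2 gene-end regions were present in 17 and 13 libraries.

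Of 10 regions at lactate carriers, 2 were open in every library. Slc16a1 encodes MCT1, which moves lactate and pyruvate across the membrane, and its start region was present in 7 high and 9 low libraries. There it held 12.2 to 23.2 reads. This start region was present in too many libraries for the presence test of high against low. Slc16a3 encodes MCT4, the lactate exporter of highly glycolytic cells. Its start region was found in 3 high and 0 low libraries, at 6.92 to 13.4 reads. These were mesenteric high replicates 1 and 3, of the deepest group, and spleen high replicate 1. Of all regions present in 2 to 5 libraries, 33.5% were in high libraries alone. Another Slc16a3 region, 2.5 kb inside the gene, was open in 4 high libraries and 1 low library. Both regions were present in too few libraries for the test of high against low.

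Of 33 regions at glycolytic enzymes, 17 were open in every library. Pgk1, phosphoglycerate kinase, had the highest gene-end level among them that was not a phosphofructokinase. It held 42.1 ± 5.14 reads in high and 42.5 ± 5.66 reads in low libraries (SD, n = 9 each). Pfkp, the platelet-type phosphofructokinase of a committed step, held 43.9 ± 2.93 reads in high and 45.0 ± 4.48 reads in low libraries at its gene end. Its region 1.8 kb inside held 49.2 ± 3.81 reads in high and 51.2 ± 3.77 reads in low libraries. The fractions overlapped at each of these regions. At their gene ends Gapdh, Gpi1, Eno1, Pgam1, Pkm and Pdk1 lay between 20.9 and 29.2 reads in either fraction. Pdk1 encodes a kinase that inhibits pyruvate dehydrogenase. Pfkfb3, which makes the activator of phosphofructokinase, held 30.5 ± 3.51 reads in high and 30.4 ± 4.63 reads in low libraries at its gene end. Hk1, the hexokinase of most tissues, held 35.8 ± 4.92 reads in high and 37.5 ± 5.27 reads in low libraries at its internal start.

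The start region of Hk2 was open in 9 high libraries, against 6 low ones, and held 7.88 to 18.3 reads where present. It was present in too many libraries for the presence test of high against low, so this split was not tested. None of the 5 regions of Hk2 was open in every library. Ldha, lactate dehydrogenase A, was open at its start region in every library, with 20.7 ± 3.75 reads in high and 18.1 ± 3.31 reads in low libraries.

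Of 11 regions at the transcription factors, 2 were open in every library. Hif1a, which encodes the oxygen-regulated factor, held 42.3 ± 5.36 reads in high and 44.9 ± 5.71 reads in low libraries at its start. Myc, the driver of growth metabolism, had 7 regions, of which 1 was present in every library. This region, 1.8 kb inside the gene (chr15:61986780-61987460), held 19.5 ± 3.30 reads in high and 22.2 ± 2.50 reads in low libraries. The authors' fold over local background was 3.71 to 5.64 there, against 12.6 to 18.8 at the Mtor promoter. The 10 kb window around the Myc region held 174 to 241 normalised reads, against 72.8 to 117 around the Mtor summit. The gene-end region of Myc was called in 4 high and 2 low libraries, although it held 16.6 to 25.6 reads where called.

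Mtor had the highest gene-end level of all listed genes (chr4:148448261-148448947). It held 44.7 ± 4.01 reads in high and 45.5 ± 6.12 reads in low libraries, and the fractions overlapped. Rheb, the GTPase that activates mTORC1, held 36 ± 4.29 reads in high and 36.3 ± 5.20 reads in low libraries. Rictor, the mTORC2 subunit, held 16.9 ± 2.72 reads in high and 17.2 ± 2.98 reads in low libraries, and Rptor, the mTORC1 subunit, was open in 9 high and 7 low libraries. Among the brakes, Tsc1 held 13.4 ± 2.76 reads in high and 15.5 ± 3.84 reads in low libraries. Tsc2 was open in 9 high and 7 low libraries, and Sesn1 held 30.6 ± 2.52 reads in high and 28.8 ± 4.95 reads in low libraries at its downstream start. None of these mTOR regions open in every library passed the test of high against low given next. The presence splits of Rptor and Tsc2 were not tested, since those regions were present in too many libraries.

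High against low was tested with limma on log2(normalised summit reads + 1), with organ as an additive term and Benjamini-Hochberg adjustment over all 8756 regions. Of 36 member regions, 1 was higher in high (adjusted p under 0.05) and 0 were lower. Over all regions 1.06% passed, 0.731% higher and 0.331% lower, and 1 of 36 is near that background. Without adjustment 1 member (2.78%) had a p under 0.05, against 12.8% of all regions. At 0 members did the high and low libraries not overlap, against 0.103% of all regions. The median log2 difference of the members was -0.012, against 0.000 over all regions.

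The region that rose lay upstream of Slc16a1, 22.3 kb outside the gene (chr3:104616056-104616580). In mesenteric nodes it held 26.9, 25.3 and 22.6 normalised summit reads in high libraries, against 16.8, 18.7 and 13.8 in low libraries. In axillary nodes it held 13.7, 19.3 and 24.4 reads in high libraries, against 8.85, 11.3 and 13.9 in low libraries. In spleen it held 15.5, 14.3 and 19.3 reads in high libraries, against 15.8, 10.2 and 9.55 in low libraries. The high libraries lay above the low ones without overlap in mesenteric nodes, whereas in axillary nodes and spleen 1 low library reached into the range of the high ones. The share of all regions separated in this way within 1 organ was not counted. The log2 difference was 0.58 (SE 0.127, 95% interval 0.32 to 0.83, limma adjusted p = 0.00427). Over the 9 libraries of each fraction the lowest, median and highest levels were 13.7, 19.3 and 26.9 reads in high, against 8.85, 13.8 and 18.7 reads in low.

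In each organ alone the same contrast was 0.58 in mesenteric nodes, 0.69 in axillary nodes and 0.46 in spleen (SE 0.217 each). None of these passed by itself, with limma adjusted p of 0.171, 0.213 and 0.535. The test of a difference between organs gave an adjusted p of 0.94 (limma F-test). The call was kept when any 1 library was left out, with log2 differences of 0.51 to 0.64. It was lost when the 3 libraries of each group were summed into 1 preparation (0.59, limma adjusted p = 0.0656). It was also lost among the 12 libraries with short fragment estimates (0.47, limma adjusted p = 0.135).

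At Slc16a1 a further region was measured in every library, 42.7 kb outside the gene. It held 13.4 ± 2.49 reads in high and 11.1 ± 2.72 reads in low libraries (log2 0.27, SE 0.138, limma adjusted p = 0.408). In mesenteric nodes it held 12.8 to 16.9 reads in high, against 7.89 to 8.88 reads in low libraries. That contrast was 0.72 (SE 0.233, limma adjusted p = 0.0972), against 0.05 in axillary nodes and 0.03 in spleen, and the test of a difference between organs gave an adjusted p of 0.506 (limma F-test). Regions 7.6 kb and 17.2 kb outside were present in 17 and 10 libraries.

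**Figure D3:**
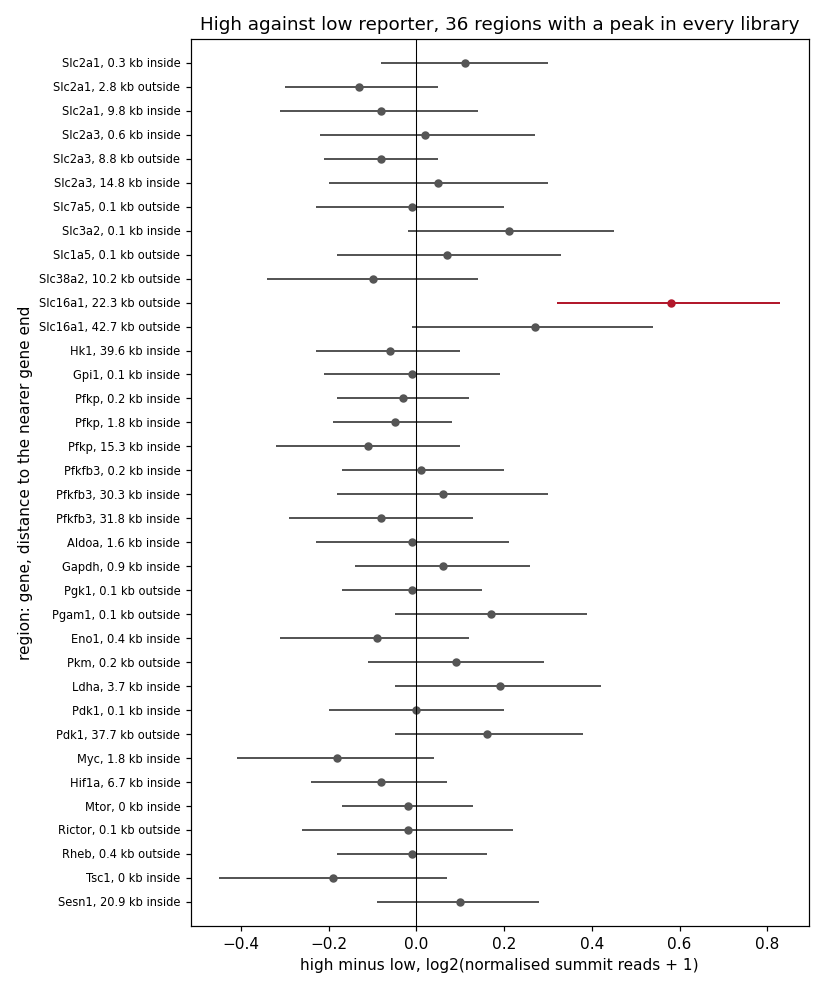
Difference between high and low (horizontal axis, log2 of normalised summit reads + 1) for the 36 regions measured in every library, by gene and distance to the nearer gene end. Points are limma estimates over 9 libraries each and bars are 95% intervals. The region 22.3 kb outside Slc16a1, in red, is the one that passed after adjustment.

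The other 35 regions gave log2 differences of -0.19 to 0.27, and none passed. Their intervals rest on the spread among these libraries, which within groups was below counting noise, so they may be too narrow. At Mtor the difference was -0.02 with an interval of -0.17 to 0.13, and at Tsc1 it was -0.19 with an interval of -0.45 to 0.07. Over the 36 regions the standard error ranged from 0.0662 to 0.138, with a median of 0.108. Within each organ 0 member regions passed in any direction, against 1.42% of all regions in mesenteric nodes, 0.32% in axillary nodes and 0.206% in spleen. The test of a difference between organs called 0 member regions and 0.251% of all. With regions present in at least 15 libraries included, another member was higher in high, 18.3 kb inside Rictor and present in 17 libraries. Under this filter 2 of 50 members were called higher, against 0.752% of 11968 regions. The Rictor difference was 0.56 (SE 0.135, limma adjusted p = 0.0134). It held 10.3 to 25.3 reads in 9 high, against 8.87 to 14.8 reads in 8 low libraries, and the fractions overlapped.

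Organs were compared in the same limma fit, with reporter fraction as an additive term. The 3 contrasts share libraries and are given side by side. Mesenteric minus axillary called 2 of 36 member regions, both higher, against 9.8% of all regions in either direction, 4.39% higher and 5.41% lower. Mesenteric minus spleen called 0 members, against 1.28% of all (0.594% higher, 0.685% lower). Axillary minus spleen called 0 members, against 5.93% of all (3.11% higher, 2.82% lower). With genome-wide background as library size mesenteric minus axillary called 22.3% of all regions higher and 1.05% lower, and 12 members higher and 0 lower. Mesenteric minus spleen then called 19.9% of all regions higher and 0.103% lower, and 10 members higher and 0 lower. With the median-ratio size factors used elsewhere, and without adjustment, 6, 5 and 7 members had a p under 0.05 in the 3 contrasts, against 24.4%, 15.1% and 21.2% of all regions. Of the 6 axillary libraries 5 had long fragment estimates, so organ and fragment length cannot be told apart in contrasts with axillary nodes.

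One of the called regions held 2 of the 3 annotated starts of Aldoa, which encodes the aldolase that splits the phosphorylated sugar (chr7:126799000-126799767). In mesenteric libraries it held 23.8, 22.3 and 20.4 normalised summit reads in high and 21.7, 34.5 and 24.7 in low. In axillary libraries it held 14.7, 18.1 and 20 reads in high and 21, 15.9 and 18.5 in low. In spleen it held 27.9, 24.4 and 21.4 reads in high and 19.7, 22.4 and 18 in low. Mesenteric and axillary libraries overlapped at 1 library each, with mesenteric levels down to 20.4 and axillary levels up to 21. The mesenteric minus axillary difference was 0.41 (SE 0.137, limma adjusted p = 0.0398). It was 0.12 for mesenteric minus spleen and -0.29 for axillary minus spleen (limma adjusted p = 0.725 and 0.203). The first call was lost without mesenteric high replicate 1, mesenteric low replicate 2 or 3, axillary high replicate 1 or axillary low replicate 2, each left out alone, with values down to 0.31. It was lost among short-fragment libraries, which keep 1 axillary library (0.38, limma adjusted p = 0.534) and with 6 summed preparations (0.43, limma adjusted p = 0.118).

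The other was the Slc16a1 region 22.3 kb outside the gene. Its lowest, median and highest levels were 13.8, 20.6 and 26.9 reads in mesenteric, 8.85, 13.8 and 24.4 reads in axillary and 9.55, 14.9 and 19.3 reads in spleen libraries. The organs overlapped. Mesenteric minus axillary was 0.45 (SE 0.155, limma adjusted p = 0.0467) and mesenteric minus spleen was 0.53 (SE 0.155, limma adjusted p = 0.0624). Axillary minus spleen was 0.07 (SE 0.155, limma adjusted p = 0.839). The mesenteric minus axillary call was lost when any of 9 libraries was left out alone, at 0.37 to 0.48. These were the 3 mesenteric high libraries and replicates 1 and 2 of mesenteric low, axillary high and axillary low. Among short-fragment libraries it was 0.29 (limma adjusted p = 0.706). With summed preparations it was 0.46 (limma adjusted p = 0.128).

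**Figure D4:**
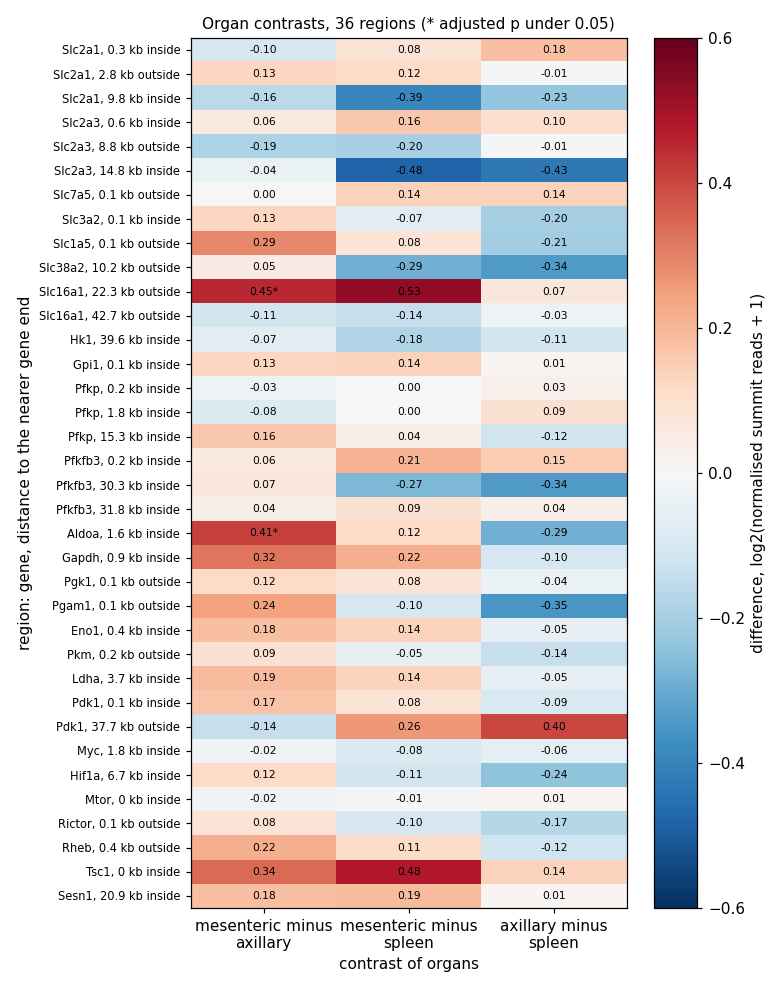
Differences between organs (columns, log2 of normalised summit reads + 1) at the 36 regions measured in every library (rows, by gene and distance to the nearer gene end). Red is higher in the organ named first and blue is lower, and an asterisk marks the 2 limma calls, at Slc16a1 and Aldoa in mesenteric minus axillary.

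Wider windows gave more calls between organs. The caller's local background is a count of whole reads in the 10 kb around a summit, and it was tested in place of the summit reads, a choice made after seeing the data. By this measure 9 member regions were called in axillary minus spleen, 4 in mesenteric minus axillary, 4 in mesenteric minus spleen and 2 in high minus low. The shares over all regions were 13.9%, 18.2%, 6.68% and 5.32%. Neighbouring regions share much of a window, so calls at Pfkp 0.2 kb and 1.8 kb inside are not separate observations. A window also takes in the reads at its own summit, so it and the summit level are not separate observations either.

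The GLUT1 gene gave the largest of these differences. Around the region 9.8 kb inside Slc2a1 (chr4:119127141-119127819) the window held a lowest, median and highest 50, 51.9 and 57.3 normalised reads in mesenteric libraries. It held 45.7, 55.7 and 65.3 reads in axillary libraries and 63.7, 77.6 and 84.6 reads in spleen libraries. Mesenteric and spleen libraries did not overlap, and axillary and spleen libraries overlapped at 1 library each. The share of all regions whose windows did not overlap between organs was not counted. Mesenteric minus spleen was -0.51 (SE 0.103, limma adjusted p = 0.000501) and axillary minus spleen -0.47 (SE 0.103, limma adjusted p = 0.000691). At the summit itself the differences were -0.39 and -0.23 and did not pass (limma adjusted p = 0.138 and 0.346).

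A region 37.7 kb outside Pdk1 (chr2:71941095-71941923) differed in the other direction. Its window held 57.3, 64.2 and 73.4 reads as lowest, median and highest in mesenteric libraries, 58, 64.2 and 81.3 in axillary libraries and 39.3, 47.8 and 59.6 in spleen libraries. Each pair with spleen overlapped by 1 spleen library. Mesenteric minus spleen was 0.41 and axillary minus spleen 0.44 (SE 0.105 each, limma adjusted p = 0.00848 and 0.00217). At its summit axillary minus spleen was 0.40 (SE 0.133, limma adjusted p = 0.0523). Around Aldoa the window, which takes in the summit, differed in the same direction as the summit. The window difference was 0.44 for mesenteric minus axillary (SE 0.104, limma adjusted p = 0.00147) and -0.38 for axillary minus spleen (SE 0.104, limma adjusted p = 0.00668).

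**Figure D5:**
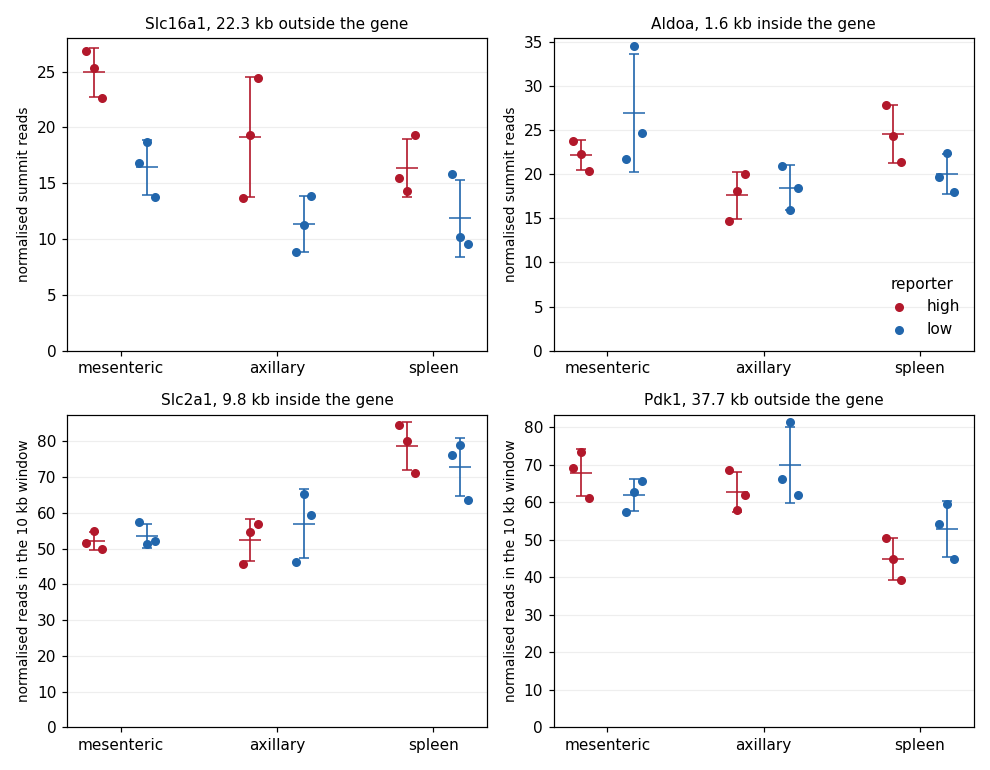
Normalised summit reads (upper panels) at the regions 22.3 kb outside Slc16a1 and 1.6 kb inside Aldoa, and normalised reads in the 10 kb window (lower panels) at the regions 9.8 kb inside Slc2a1 and 37.7 kb outside Pdk1, by organ (horizontal axis) and reporter fraction. Points are libraries and bars are mean ± SD of 3. High libraries of mesenteric nodes lie above the low ones at Slc16a1, and at Slc2a1 the spleen libraries lie above all mesenteric ones, at 63.7 to 84.6, against 50 to 57.3 in mesenteric libraries.

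For high against low the windows called Slc16a1 22.3 kb outside (0.36, SE 0.113, limma adjusted p = 0.0413) and the start of Pgam1, phosphoglycerate mutase (0.28, SE 0.0868, limma adjusted p = 0.0431). The Pgam1 window held 48.6, 64.1 and 71.2 reads as lowest, median and highest in high libraries, against 43.5, 52 and 58.8 in low libraries. Within mesenteric nodes 1 member window passed, against 4.08% of all. There the Myc window held 188 to 199 reads in high libraries, against 218 to 241 in low libraries (-0.24, SE 0.0746, limma adjusted p = 0.0449). Mesenteric low was the group that stood apart, with a mean of 229 reads, against 194 in mesenteric high. The means of high and low were 195 and 196 reads in axillary nodes and 193 and 189 in spleen. At the Myc summit the mesenteric contrast was -0.43 (SE 0.189, limma adjusted p = 0.295), with 15.8 to 18.4 reads in high, against 20.7 to 25.6 reads in low libraries.

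A wider list of 83 genes of the same pathways had 166 regions at 75 genes, 59 of them in all 18 libraries. High against low called 1 of the 59 higher and 0 lower, against 1.06% of all regions. It was the gene-end region of Lamtor1, a subunit of the Ragulator complex that anchors mTORC1 at the lysosome. It held 25 ± 2.72 reads in high and 18.7 ± 2.99 reads in low libraries (log2 0.41, SE 0.108, limma adjusted p = 0.0275). Mesenteric minus axillary called 2 higher and 1 lower, against 4.39% higher and 5.41% lower over all regions, so the count was not above the background. Pfkfb4, a relative of Pfkfb3, held 27.3 ± 5.53 reads in mesenteric and 19.8 ± 4.36 reads in axillary libraries (log2 0.45, SE 0.134, limma adjusted p = 0.0201). Mapkap1, a subunit of mTORC2, held 24 ± 2.77 reads in mesenteric and 17.7 ± 3.34 reads in axillary libraries (log2 0.43, SE 0.137, limma adjusted p = 0.0315). Rraga, a GTPase that signals amino acids to mTORC1, was lower, with 26.9 ± 3.13 reads in mesenteric and 34.4 ± 5.65 reads in axillary libraries (log2 -0.33, SE 0.113, limma adjusted p = 0.0436). The contrasts of either node with spleen called none of the 59.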

How the data were processed

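The submitters deposited 1 peak list per library on mm10, and per the submitters' processing notes used Trimmomatic 0.33, Bowtie2, bedtools and MACS. Each deposited peak has a score, a fold enrichment (a ratio), and a −log10 p and q value by the authors, and the other deposited column used is the summit offset. The sources used here do not state how duplicates were treated, whether cut sites were shifted or which options the caller had. Peaks outside the 19 autosomes and X were set aside (404 of 314829).

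Whole summit reads and 10 kb window reads were recovered from fold and p, with a single match within 0.002 in 99.3% of peaks. Their use as levels depends on the peak caller's fragment extension. Size factors were medians of ratios over regions in all 18 libraries. Tests used limma 3.58.1 in R 4.3.3, with a trend and a pseudocount of 1, Fisher's exact test and the Fisher-Freeman-Halton test (Python 3.11.15, scipy 1.17.1), all with Benjamini-Hochberg adjustment at 0.05 over all regions. A fold change on the log2(value + 1) scale understates the change of low regions. Scripts were tested on simulated data. Gene ends and promoters came from RefSeq GRCm38.p6.

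Regions with full values were those called by limma or with an unadjusted presence p under 0.05, and for other genes the gene-end regions. Other regions given with values (farther regions of Slc2a1, Slc2a3, Slc16a1, Slc16a3, Hk1, Hk2, Pfkp, Ldha, Pdk1, Hif1a, Myc, Rictor and Sesn1, and all 10 kb windows) were chosen after their values were seen. The members and lists were chosen with earlier results of these data known. Alternatives covered normalization, pseudocount, background, filters, depth, overlap, fragment length, replicate block and leaving out each library. For 1 further gene of the marker lists the result is not reported here.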

Additional observations from a re-analysis of the deposited data

How the results depend on the processing

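The count of regions called higher in high than in low was 1. It became 0 with a mean of at least 30 reads, with 6 summed preparations, with fragment estimates under 200 bp, and without the axillary and long-fragment libraries, 2 with a peak in at least 15 libraries and 2 with 10 kb windows. Fewer regions or libraries entered the first 4 of these. Mesenteric minus axillary called 2 higher. It called 12 with genome-wide background as library size, which shifted the median of all regions by 0.187 and called 22.3% of them higher. It called 0 with local background subtracted, a mean of at least 30 reads, 6 preparations or short fragments, 1 with a peak in at least 15 libraries, and 0 to 2 with 1 library left out. The filter of at least 30 reads removed the Slc16a1 and Aldoa regions, so neither could be called under it, here or in high against low. Mesenteric minus spleen called 0 higher, but 10 under genome-wide background (median shift 0.206, 19.9% of all regions higher), 2 with windows and 0 to 1 with 1 library left out. With windows it called 2 lower, mesenteric minus axillary 2 lower, axillary minus spleen 3 higher and 6 lower, and high minus low in mesenteric nodes 1 lower. With 1 library left out axillary minus spleen called 0 to 1 higher and 0 to 2 lower. Slc7a5 at its gene end turned to 0.28 with windows in mesenteric minus axillary. The cause was not tested. No presence call arose under the alternatives, with 0 member regions throughout. The replicate block for organs gave no adjusted p, so it could not yield a call. In the main test of high against low, no single region could pass adjustment alone.

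With the replicate block the counts were 1 higher in high and 2 higher in mesenteric minus axillary, and the Slc16a1 difference was 0.58 (limma adjusted p = 0.00511). Deviations of same-numbered libraries correlated at -0.0271 to 0.0374 over 45 pairs. Pairs of different number and group gave -0.0669 to 0.0369 over 90 pairs. Of 18 libraries, 7 matched their own number best. No pairing by number was seen, but counting noise at these summits could hide one, so it is not excluded.

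Median summits of 13 to 16 reads per library limit precision, and differences under about the quoted intervals were not detectable at this depth. Intervals reflect the spread between these libraries only. Within groups that spread was below counting noise (chi-square per region of 0.512 to 0.636). The intervals may therefore be too narrow and the limma p-values too small.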
